A study of Mus musculus with 12 samples.

Results

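The collagen and laminin chains of mouse testis were followed in RNA from whole testes that had received lentivirus. A gene was taken as a chain when its symbol was that of a collagen alpha chain or of a laminin alpha, beta or gamma chain, and when it had a mean of at least 10 estimated counts over 12 libraries. This rule kept 52 of the 55 collagen and laminin genes in a table of 20718 genes, 41 collagen chains and 11 laminin chains, and all 52 passed the filter on low counts before testing. The rule used the mean level over all libraries, so the order of the levels below is a description, and the differences between groups were not part of it. Col25a1, with a mean of 13.25 estimated counts, was the chain just inside the minimum, and Col13a1, with 9.08, was just outside; Col9a2 had 2.0 and Col10a1 0.83.

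The mice were ICR males (the labels spell the strain IRC), injected in the testis at 4 weeks of age and mated at 9 weeks. There were 4 groups of 3 libraries, all named F0 for the injected generation. F0_5251KD mice received a mixture of 3 short hairpin RNAs against the long non-coding RNA lncRNA5251, and F0_3NC mice the negative control of the same backbone. F0_5251OV mice received a virus that carried lncRNA5251 for overexpression, and F0_5NC mice the empty vector of that second backbone. Every group had therefore been injected with a virus, and no uninjected testis was among them. Which testis cells the virus reached is not in the labels. Nor is it stated there that each library was made from its own animal, so p-values here reflect the spread among the libraries alone, which may be technical.

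Collagens are built from 3 alpha chains wound into a triple helix. Fibrillar collagens form the banded fibrils of connective tissue, FACIT collagens (fibril-associated collagens with interrupted triple helices) sit on those fibrils, collagen VI forms beaded microfilaments, and collagen IV forms the network of basement membranes. Laminins are cross-shaped trimers of 1 alpha, 1 beta and 1 gamma chain that make up the other network of basement membranes and are bound by integrins and dystroglycan. In the testis, a basement membrane lies under the Sertoli cells and spermatogonia of each seminiferous tubule, next to the peritubular myoid cells and fibrils of the tubule wall, and others surround the blood vessels and the Leydig cells between the tubules.

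Totals per library were 15431383 to 16355720 estimated counts, and between 18624 and 18733 genes had at least 1 count. The markers of testis germ cells were abundant in every library: the 10 spermatid markers summed to between 19593 and 25364 CPM (counts scaled to library size by TMM). All 3 knockdown sequences matched Purb without a mismatch among 141767 GENCODE transcripts. Purb was at 8.02 to 11.14 FPKM (fragments scaled to transcript length and library size) in the 12 libraries and had a log2 fold change of -0.11 in F0_5251KD against F0_3NC (adjusted p = 0.897, edgeR). The RNA lncRNA5251 had no row under that name and was not analysed here. F0_5NC replicate 1 stood apart in its markers of somatic cells. Its Sertoli markers lay on average 0.45 log2 units above their mean over all libraries, against -0.13 to 0.08 in the other 11. Its fibroblast and macrophage markers lay on average 0.48 and 0.57 above. The 5 epididymis markers in the table summed to 18.57 to 116.0 CPM in F0_5NC, 5.43 to 75.99 in F0_5251OV, 5.47 to 11.62 in F0_3NC and 2.35 to 5.31 in F0_5251KD. The 14 immediate-early genes summed to 388.8 to 460.5 CPM in F0_5251KD, 220.6 to 244.7 in F0_3NC, 110.01 to 119.4 in F0_5NC and 88.5 to 125.5 in F0_5251OV, without overlap between the first 3 of these groups.

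**Figure D1:**
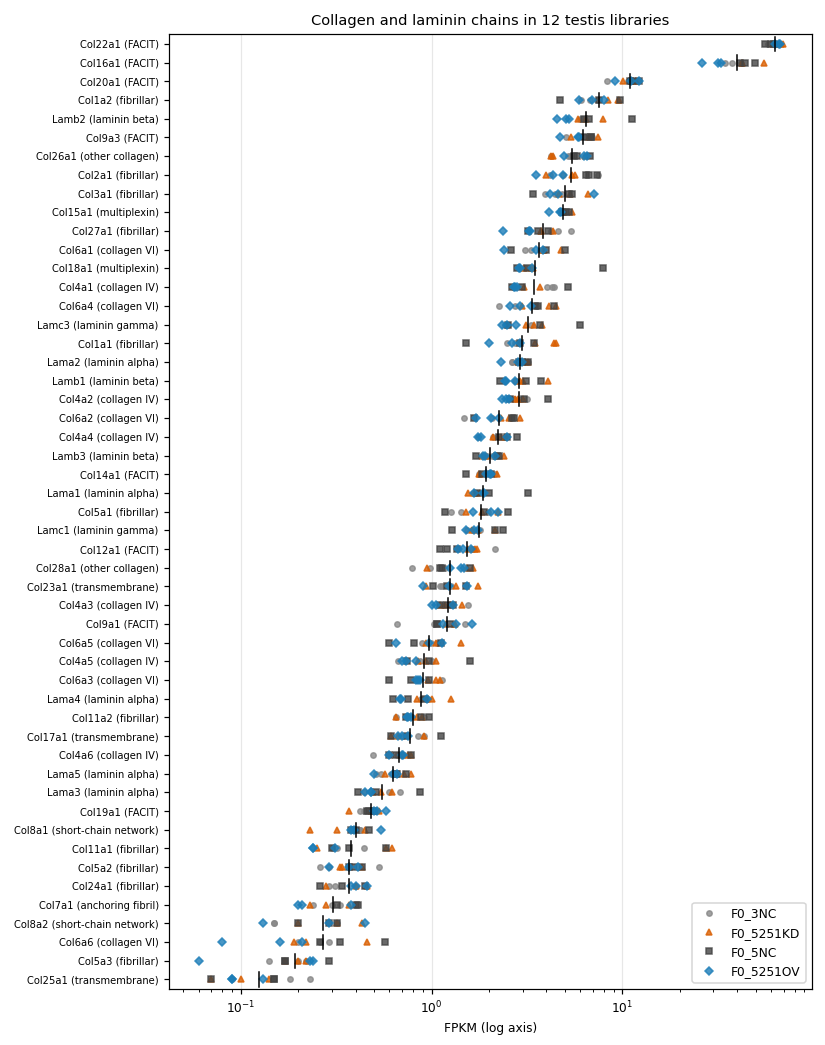
FPKM of 51 of the 52 chains on a log axis, 1 symbol per library (3 libraries in each of 4 groups) and a vertical bar at the mean of 12. Col22a1 and Col16a1 lie to the right of all other chains, the symbols of Col20a1 overlap those of Col1a2 and Lamb2, and for most chains the symbols of the 4 groups are mixed.

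A pair of FACIT collagens gave the largest share of the chain signal per length. Col22a1, a FACIT collagen known from tissue junctions, had a mean of 63.4 FPKM, with a range of 55.78 to 69.21 over the 12 libraries. Col16a1, a FACIT collagen of fibrils and of microfibrils near basement membranes, had 40.0 FPKM (26.26 to 55.53). Col22a1 took 22.7% to 33.1% of the summed FPKM of the 52 chains, and Col22a1 with Col16a1 took 42.7% to 49.9%. Col20a1, another FACIT collagen, followed with 10.9 FPKM, Col1a2 with 7.55, Lamb2 with 6.46 and Col9a3 with 6.19. The 6 highest chains together took 58.6% to 64.1%.

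The remaining chains lay in a long, gradual order. Only 3 chains reached 10 FPKM, 29 lay between 1 and 10, and 20 lay under 1, with a median of 1.79 and a lowest mean of 0.124 FPKM for Col25a1. In this order, 49 of the 51 pairs of neighbours had ranges over the 12 libraries that overlapped, so most neighbours could not be ranked. The median coefficient of variation within groups was 19.9%, from 5.17% to 43.5%. The 4 group means of a chain lay within 1.5-fold of each other for 40 of the 52 chains.

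The level per length depends on the transcript length behind it. The deposited values imply a length of 4147 nt for Col22a1 and 3663 nt for Col16a1, which is 47.1% and 70.4% of their longest coding GENCODE transcripts. Scaled to those longest transcripts, Col22a1 came to 29.8 FPKM, Col16a1 to 28.2 and Col20a1 to 9.24, still the highest 3 of the 52. Over all chains the implied length was a median of 96.8% of the longest coding transcript, from 47.1% to 245.5%, and under 80% for 9 chains. The shares of the summed FPKM above use the deposited values. They were not recomputed at the longest transcripts, where Col22a1 and Col16a1 were lower and lay closer together. Reads of opposite strands were not separated, and 15 chains share exonic bases with another gene. Col9a3 shares 234 exonic bases with Tcfl5 on the other strand, a gene at 151.8 to 167.6 FPKM here, and reads of the 2 genes in those bases cannot be told apart.

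By class, the highest fibrillar chain was Col1a2 and the lowest Col5a3 (0.193 FPKM). The highest chain of collagen IV was Col4a1 (3.44 FPKM) and the lowest Col4a6 (0.678). The highest chain of collagen VI was Col6a1 (3.66) and the lowest Col6a6 (0.269). Among the laminins, Lama2 (2.89 FPKM) was the highest alpha chain, Lamb2 the highest beta chain and Lamc3 (3.20) the highest gamma chain. Lama3 and the collagen chains Col7a1 and Col17a1, which belong to the anchoring structures of skin and other stratified epithelia, lay at 0.548, 0.306 and 0.771 FPKM.

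Most pairs of related chains kept an order in the libraries. Collagen I contains more alpha 1 than alpha 2 protein, yet Col1a2 was above Col1a1 in all 12 libraries, with a ratio per length of 2.10 to 3.36. Col6a1 was above Col6a2 in 12 of 12 libraries (ratio 1.41 to 2.08). Of the laminin chains that take the same place in different trimers, Lamb2 was above Lamb1 in 12 of 12 (1.85 to 2.99), and Lamc3 above Lamc1 in 12 of 12 (1.40 to 2.52). Col4a1 was above Col4a2 in 10 of 12, with a ratio of 0.984 to 1.63. The ratio Col4a1/Col4a2 had a mean of 1.45 ± 0.18 (SD, n = 3) in F0_3NC and of 1.09 to 1.12 in the other 3 groups.

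The genes of the collagen IV pairs lie head to head. Col4a1 and Col4a2 are shown as the pair whose library deviations from the group means had the highest Pearson's r (0.81) of these pairs. Spearman's rho was 0.51, and both genes were at their highest in F0_5NC replicate 1. In F0_5251KD against F0_3NC their log2 fold changes were -0.43 and -0.04. Any part of the shared starts in their levels was not tested. The windows below (GRCm38.p6) take position 11312826 of chromosome 8, on the minus strand, as the start of Col4a1. They take position 11312805, on the plus strand, as that of Col4a2. The RefSeq gene record of Col4a1 reaches further, to position 11312889. The starts taken for the windows are 21 bases apart, and the exons of the pair share 22 bases in GENCODE. The 300-base windows below run from 250 bases before to 50 bases after each start and share 78 bases. Col16a1 and Lamb2 are shown because they had the smallest p-values among the chains in the overexpression comparison. Capitals mark CCAAT and GGGCGG on either strand (read as ATTGG and CCGCCC from the other); CCAAT can share letters with CCGCCC. The windows are chr8:11312777-11313076 (minus) for Col4a1, chr8:11312555-11312854 (plus) for Col4a2, chr4:130047590-130047889 (plus) for Col16a1 and chr9:108479612-108479911 (plus) for Lamb2, each printed 5′ to 3′ on the strand of the gene.
Col4a1: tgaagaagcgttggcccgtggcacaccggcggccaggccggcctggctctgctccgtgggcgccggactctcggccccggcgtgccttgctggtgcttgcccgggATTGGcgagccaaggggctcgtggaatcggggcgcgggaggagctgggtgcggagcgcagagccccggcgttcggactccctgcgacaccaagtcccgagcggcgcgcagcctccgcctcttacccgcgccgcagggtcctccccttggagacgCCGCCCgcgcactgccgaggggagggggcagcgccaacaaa
Col4a2: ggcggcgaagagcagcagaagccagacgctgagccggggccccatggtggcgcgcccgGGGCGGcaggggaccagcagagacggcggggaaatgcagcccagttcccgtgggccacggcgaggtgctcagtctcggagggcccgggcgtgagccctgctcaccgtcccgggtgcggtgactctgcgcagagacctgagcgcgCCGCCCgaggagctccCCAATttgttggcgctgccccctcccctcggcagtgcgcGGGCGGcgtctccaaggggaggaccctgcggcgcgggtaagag
Col16a1: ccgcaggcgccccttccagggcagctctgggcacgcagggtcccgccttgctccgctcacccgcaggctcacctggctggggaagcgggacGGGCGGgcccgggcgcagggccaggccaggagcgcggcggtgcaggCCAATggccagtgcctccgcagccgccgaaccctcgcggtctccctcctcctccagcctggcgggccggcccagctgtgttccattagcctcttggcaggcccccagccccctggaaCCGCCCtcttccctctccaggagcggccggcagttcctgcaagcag
Lamb2: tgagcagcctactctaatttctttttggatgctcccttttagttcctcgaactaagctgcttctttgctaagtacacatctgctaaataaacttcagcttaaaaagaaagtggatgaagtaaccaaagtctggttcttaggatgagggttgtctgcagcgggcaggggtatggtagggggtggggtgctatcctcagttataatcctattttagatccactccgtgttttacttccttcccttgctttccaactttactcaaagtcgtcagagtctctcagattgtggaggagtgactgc

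The Col4a1 window held 1 CCAAT and 1 GGGCGG, the Col4a2 window 1 CCAAT and 3 GGGCGG, and the Col16a1 window 1 CCAAT and 2 GGGCGG, with a GC content of 73.7% to 74.3%. The Lamb2 window held neither and had a GC content of 44.0%. None of the 4 windows held TATAAA on either strand. RefSeq windows were found for 37 of the 52 chains (41 windows). Of these, 61.0% held GGGCGG, against 35.7% of all 32851 windows, 34.15% held CCAAT against 37.4%, and 7.32% held TATAAA against 13.6%. These matches are letters in a window and say nothing of factor binding.

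The comparison of F0_5251KD with F0_3NC asked which chains differ when lncRNA5251 is targeted by short hairpin RNAs. Of the 52 chains, 38 had a positive and 14 a negative log2 fold change, with a median of 0.13, against a median of -0.004 over the 16296 genes tested. Without F0_5251KD replicate 3 the median of the chains was 0.083. No chain passed an adjusted p of 0.05 in edgeR's quasi-likelihood test with Benjamini-Hochberg adjustment, nor in DESeq2 or limma, and 0.0245% of all genes did in edgeR and 0.123% in DESeq2. Before adjustment, 4 chains were higher and 1 was lower at p under 0.05, where 2.34% of all genes were higher and 2.4% lower. That count of 5 was 1 without F0_5251KD replicate 3, 2 without F0_3NC replicate 1, 3 without F0_3NC replicate 2 and 8 without F0_5251KD replicate 2. Here and in the comparisons below, the share of all genes was not counted with a library left out. A change in such a count therefore cannot be read as particular to the chains. The libraries of both groups did not overlap for 4 higher chains and 1 lower chain, against 5.52% and 6.27% of all genes.

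The chains of collagen I, the main collagen of connective tissue fibrils, had the smallest p-values among the higher chains. Col1a1 was at 24.8, 20.4 and 26.1 CPM in F0_5251KD and at 15.9, 14.2 and 16.97 CPM in F0_3NC. All 3 knockdown libraries lay above all 3 controls, and the log2 fold change was 0.60 ± 0.22 (SE), with an adjusted p of 0.897 (edgeR). Col1a2 was at 47.2, 42.9 and 49.3 CPM against 34.9, 37.4 and 31.4. Its groups did not overlap either, and the log2 fold change was 0.43 ± 0.18 (SE; adjusted p = 0.897). Col3a1, the partner of collagen I in many fibrils, was at 29.96 ± 4.9 against 23.9 ± 2.1 CPM (SD, n = 3), with overlapping groups and a log2 fold change of 0.32 (95% interval -0.10 to 0.75) that was 0.19 without F0_5251KD replicate 1. Col1a1 and Col1a2 kept their sign when any single library was left out, with log2 fold changes of 0.53 to 0.70 and of 0.36 to 0.49.

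The 6 chains of collagen VI had positive log2 fold changes in F0_5251KD, from 0.09 for Col6a6 to 0.42 for Col6a4, with a median of 0.24. That of Col6a6 was negative without F0_5251KD replicate 1 (-0.30) or F0_3NC replicate 2 (-0.04). Col6a4, one of the chains that can take the place of alpha 3, was at 29.8, 22.0 and 33.1 CPM against 20.4, 16.5 and 26.7, with groups that overlapped (log2 fold change 0.42 ± 0.19, SE; adjusted p = 0.897; 0.27 without F0_3NC replicate 2). Col6a1 was at 17.9, 14.8 and 15.1 CPM against 14.4, 11.7 and 12.9, without overlap (log2 fold change 0.29 ± 0.20, SE). Of the fibrillar class 9 of 11 chains were positive with a median of 0.19, and of the FACIT class 6 of 8 with a median of 0.08. The fibrillar median was 0.11 to 0.19 with a library left out, lowest without F0_5251KD replicate 3, and the FACIT median was -0.02 to 0.14, below 0 without F0_3NC replicate 2. Col16a1 was at 150.5, 156.0 and 199.6 CPM in F0_5251KD against 129.6, 134.9 and 156.7 in F0_3NC. Its groups overlapped, and its log2 fold change was 0.26 ± 0.12 (SE; adjusted p = 0.897) and 0.12 without F0_5251KD replicate 3.

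The chains of collagen IV and the laminins lay on both sides of 0 in this comparison. Col4a1 was at 23.5, 17.8 and 19.9 CPM in F0_5251KD and at 27.8, 25.8 and 28.9 in F0_3NC. The knockdown libraries all lay below the controls, and the log2 fold change was -0.43 ± 0.18 (SE; adjusted p = 0.897). Its head-to-head partner Col4a2 had a log2 fold change of -0.04 with a 95% interval of -0.31 to 0.22. Of the 6 collagen IV chains 3 were positive and 3 negative, and of the 11 laminin chains 7 were positive and 4 negative (median 0.12, and 0.026 without F0_5251KD replicate 1). Lamb1 was at 22.4, 16.4 and 16.7 CPM against 15.6, 15.1 and 13.8, without overlap, and had the smallest p of the laminins (log2 fold change 0.32, 95% interval -0.01 to 0.64). Its log2 fold change was 0.16 without F0_5251KD replicate 1. Lamc1 and Lama2 had intervals of -0.23 to 0.51 and of -0.14 to 0.33. At the low end of the levels, Col25a1, a membrane-spanning collagen, was at 0.748 ± 0.23 against 1.12 ± 0.38 CPM (SD, n = 3), with a 95% interval of -1.40 to 0.24.

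**Figure D2:**
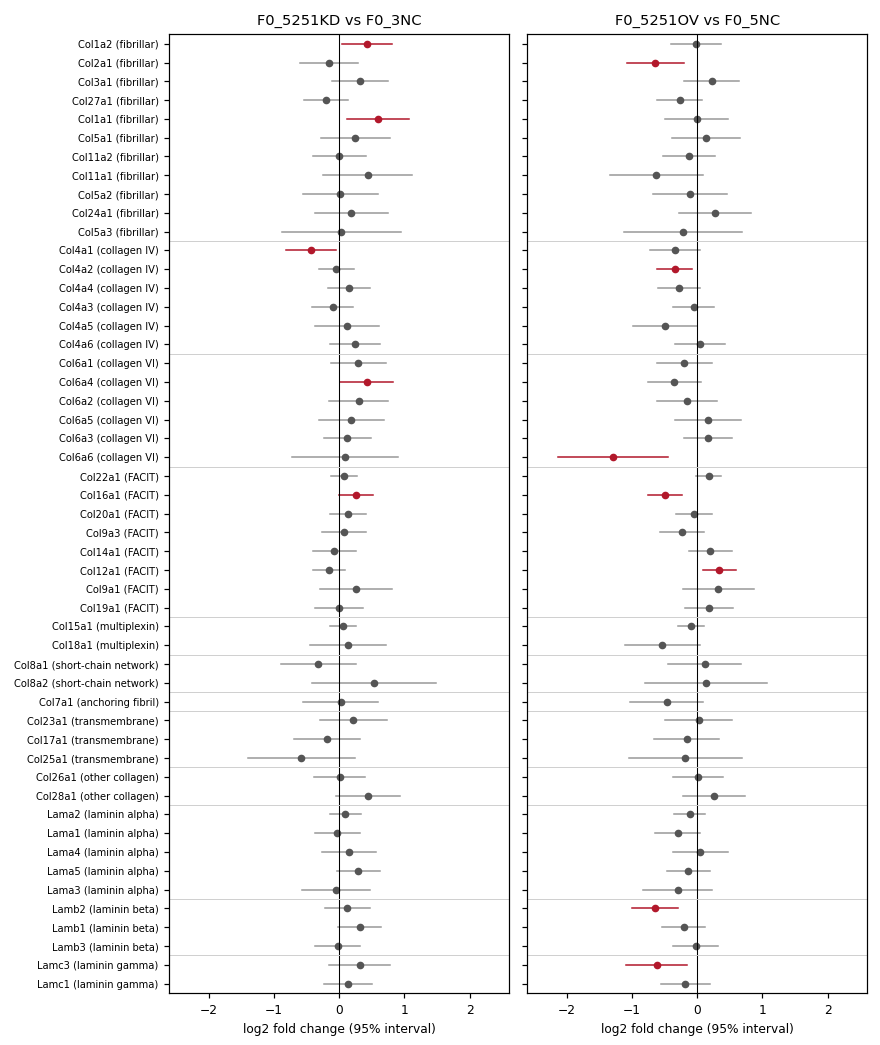
Log2 fold change of 51 of the 52 chains with the 95% interval (edgeR), grouped by class, in F0_5251KD against F0_3NC (left) and F0_5251OV against F0_5NC (right); red marks an unadjusted p under 0.05. The points lie mostly right of 0 on the left (38 of 51) and mostly left of 0 on the right (34 of 51), and no chain passes the adjusted threshold.

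The comparison of F0_5251OV with F0_5NC asked the same of overexpression. Here 18 chains were positive and 34 negative, with a median log2 fold change of -0.12 (-0.002 over all genes). The median was -0.17 to -0.062 with a library left out, and -0.062 without F0_5NC replicate 3. No chain passed the adjusted threshold in edgeR, nor did any gene (0% of 16296). DESeq2 called 1 chain, Col16a1, and 0.184% of all genes, and limma no chain. Before adjustment 1 chain was higher and 6 were lower at p under 0.05, where 3.97% of all genes were higher and 4.8% lower. The groups did not overlap for 1 higher and 7 lower chains, against 7.33% and 6.57% of all genes. Without F0_5NC replicate 1 the count at an unadjusted p under 0.05 was 5 in both directions together, without F0_5NC replicate 2 it was 15 and without F0_5NC replicate 3 it was 11. The shares of all genes without those libraries were not counted.

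Col16a1 had the smallest p of the chains. It was at 97.0, 124.2 and 121.7 CPM in F0_5251OV and at 164.8, 165.9 and 150.2 CPM in F0_5NC. All overexpression libraries lay below all vector libraries, and the log2 fold change was -0.49 ± 0.12 (SE; adjusted p = 0.49 in edgeR). In DESeq2 the log2 fold change was also -0.49 with an adjusted p of 0.0492. With any single library left out it lay between -0.55 and -0.38. The other highly ranked FACIT chain, Col22a1, was at 260.4, 279.2 and 286.1 CPM against 215.3, 264.1 and 249.7, with overlapping groups and a log2 fold change of 0.18 (95% interval -0.01 to 0.37), or 0.097 without F0_5NC replicate 1.

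Lamb2, the laminin beta chain of mature basement membranes, was at 27.8, 29.1 and 25.7 CPM in F0_5251OV and at 57.2, 35.1 and 36.7 CPM in F0_5NC. The groups did not overlap, but F0_5NC replicate 1 was far above the other controls. The log2 fold change was -0.65 ± 0.16 (SE; adjusted p = 0.49, edgeR) and -0.39 without that library. Lamc3, a laminin gamma chain, was at 13.53, 16.2 and 14.9 CPM against 32.2, 14.9 and 21.4, with overlapping groups. Its log2 fold change of -0.62 ± 0.22 (SE) became -0.29 without F0_5NC replicate 1. Both chains moved with the markers of Sertoli cells, fibroblasts and macrophages in that library. In this comparison 15 of 15 Sertoli markers had a negative log2 fold change (median -0.21, 4 of them at an unadjusted p under 0.05). Of the 16296 genes tested, 8224 were negative and 4.8% were lower at that p. Without F0_5NC replicate 1, 11 of the 15 Sertoli markers were negative, with a median of -0.064. Their summed level was 1236.5 to 1431.9 CPM in F0_5251OV and 1461.3 to 2111.9 CPM in F0_5NC, none of the markers being at 0, and their part in these differences was not tested. In bulk RNA, fewer cells of a type and less RNA per cell cannot be told apart.

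Of the 11 laminin chains 9 were negative in F0_5251OV, with a median of -0.18, and of the 6 collagen IV chains 5, with a median of -0.30. Without F0_5NC replicate 1 these medians were -0.080 and -0.13, and without F0_5NC replicate 2 that of the laminins was -0.35. Col4a2 was at 14.8, 16.3 and 15.9 CPM against 23.9, 16.6 and 19.2, without overlap, with a log2 fold change of -0.35 ± 0.12 (SE). It was -0.19 without F0_5NC replicate 1. Col4a1 was at 17.4, 17.9 and 18.8 CPM against 31.1, 17.6 and 19.4, and its log2 fold change of -0.33 became -0.04 without the same library. Both genes of the overlapping starts printed above therefore moved nearer to 0 without that library. Col4a5 had a log2 fold change of -0.49 (95% interval -0.98 to 0.00), which was -0.17 without that library too. Its partner on the X chromosome, Col4a6, had 0.05 (-0.33 to 0.43).

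Single chains of other classes stood at the edges. Col6a6 was at 0.6, 1.4 and 1.2 CPM against 3.7, 2.2 and 1.7, which is a log2 fold change of -1.29 ± 0.39 (SE) at a level near 1 CPM. The other collagen VI chains lay between -0.35 and 0.17. Col2a1, the fibrillar collagen of cartilage, was at 16.98, 20.9 and 24.3 CPM against 29.8, 31.8 and 35.4, without overlap (log2 fold change -0.64 ± 0.20, SE; adjusted p = 0.536). Col1a1 and Col1a2 had log2 fold changes of -0.003 and -0.01 with 95% intervals of -0.49 to 0.48 and of -0.39 to 0.37. Col12a1, a FACIT collagen bound to collagen I fibrils, was the chain on the higher side, at 16.8, 15.3 and 14.98 CPM against 11.3, 12.2 and 13.7. Its groups did not overlap, and the log2 fold change was 0.34 ± 0.12 (SE; adjusted p = 0.548).

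**Figure D3:**
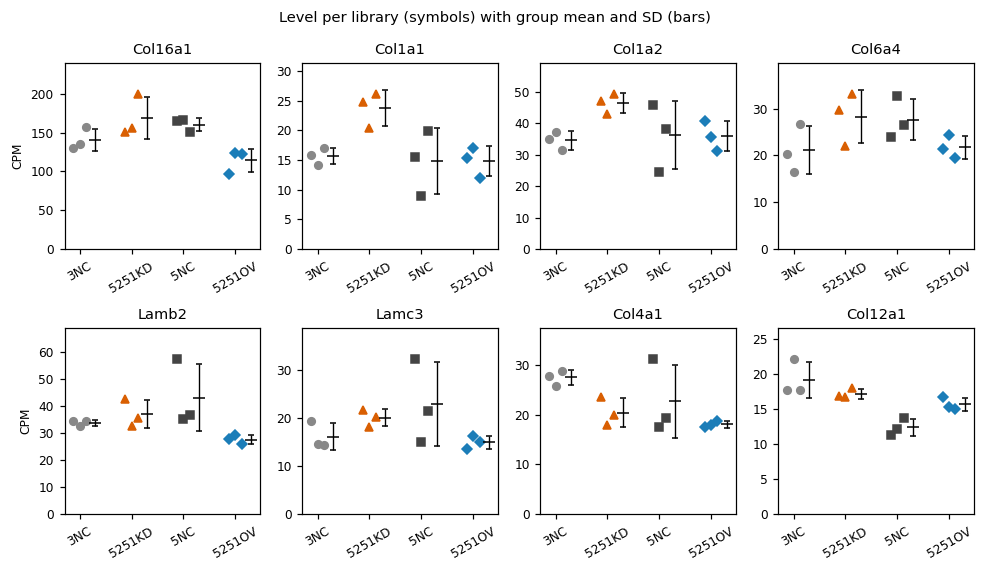
CPM per library (3 symbols a group) of 8 chains, with the mean and SD of each group as a bar beside them; axes start at 0 and differ between panels. Col1a1 and Col1a2 sit higher in F0_5251KD than in F0_3NC, and Col16a1 lower in F0_5251OV than in F0_5NC. For Lamb2, Lamc3 and Col4a1, 1 library of F0_5NC lies far above the others of its own group.

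The 2 control groups differed in 1 chain. In F0_3NC against F0_5NC, Col12a1 was at 17.7, 22.2 and 17.8 CPM against 11.3, 12.2 and 13.7, without overlap, and passed the test, where the log2 fold change was 0.63 ± 0.12 (SE; adjusted p = 0.0409, edgeR). Of all genes 0.331% passed. The call was lost when any single library was left out, with adjusted p-values of 0.0639 to 0.140 and log2 fold changes of 0.52 to 0.71, and in limma and 4 other settings. Before adjustment 2 chains were higher (Col12a1 and Col27a1) and 4 lower (Lama1, Lamc3, Lamb2 and Col18a1), against 6.41% and 5.47% of all genes. That count of 6 was 3 without F0_5NC replicate 1 and 10 without F0_5NC replicate 2, with no share of all genes counted for either. Of the chains 16 were positive and 36 negative, with a median of -0.09.

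Lama1, the alpha chain of laminin-111, was at 16.2, 15.3 and 16.2 CPM in F0_3NC against 28.0, 16.6 and 18.7 in F0_5NC. Its log2 fold change of -0.41 ± 0.16 (SE) became -0.15 without F0_5NC replicate 1. The same step took Lamb2 from -0.35 to -0.09, Lamc3 from -0.51 to -0.18 and Col18a1 from -0.58 to -0.02. Col18a1, a collagen of basement membranes, was at 36.2 CPM in that library and at 13.8 to 17.2 CPM in the other 11. Since F0_3NC and F0_5NC also serve as the controls of the other comparisons, these values are not independent of those above.

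The difference of effects, (F0_5251KD against F0_3NC) minus (F0_5251OV against F0_5NC), asked whether the 2 treatments moved a chain unequally. It was positive for 38 chains and negative for 14, with a median of 0.19. No chain passed the adjusted threshold in edgeR, nor did any gene (0%); DESeq2 called Col16a1 (0.76, adjusted p = 0.0125) and 0.215% of all genes. Before adjustment 7 chains were positive and 1 negative, against 5.23% and 6.08% of all genes. That count of 8 was 17 without F0_5NC replicate 2 and 5 without F0_5251KD replicate 1, again with no share of all genes counted. The smallest p was that of Col16a1, with a difference of 0.75 ± 0.17 (SE; adjusted p = 0.292, edgeR) from log2 fold changes of 0.26 and -0.49. Lamb2 (0.77 ± 0.23), Lamc3 (0.93 ± 0.31) and Col6a4 (0.77 ± 0.26) followed among the positive chains, and Col12a1 (-0.50 ± 0.16) was the negative one. Without F0_5NC replicate 1 the difference was 0.61 for Lamc3 and 0.52 for Lamb2.

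Other genes of the matrix had list medians on the same side of 0 as the chains, and few passed a test. In F0_5251OV the medians of 6 of the 7 lists moved by more than 1.5 times without F0_5NC replicate 1. The 19 other basement membrane genes, such as nidogens, perlecan and agrin, had medians of 0.14 in F0_5251KD (13 positive, 6 negative) and -0.18 in F0_5251OV (5 and 14). None passed the adjusted threshold in either. Agrn, the proteoglycan agrin, had the smallest p in the knockdown comparison (0.45 ± 0.16, SE), and Lgals3bp, a secreted protein that binds matrix, in the overexpression comparison (-0.76 ± 0.14, SE; adjusted p = 0.269). Ntn1, the laminin-related guidance protein netrin-1, had 0.33 ± 0.16 and -0.59 ± 0.16 (SE).

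Receptors of the 2 networks gave no call either. Of 14 integrins and laminin receptors, 8 were positive in F0_5251KD (median 0.04) and 3 in F0_5251OV (median -0.27). Dag1, the laminin receptor dystroglycan, had -0.26 ± 0.09 (SE) and Bcam, a receptor of laminin alpha 5, -0.59 ± 0.22 (SE) in the latter. Of 7 collagen receptors, 4 were positive in F0_5251KD and 2 in F0_5251OV. Mrc2, which takes up collagen fragments, had 0.85 ± 0.24 (SE; adjusted p = 0.867) in F0_5251KD, and Ddr1, a collagen-binding receptor kinase, -0.76 ± 0.24 (SE; adjusted p = 0.536) in F0_5251OV and -0.39 without F0_5NC replicate 1.

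Of the 31 collagen biosynthesis genes tested, 21 were positive in F0_5251KD (median 0.10) and 7 in F0_5251OV (median -0.16). The crosslinking enzymes Loxl3 and Loxl4 had 0.82 ± 0.24 and 0.93 ± 0.32 (SE) in the former, and Loxl1 had -0.47 ± 0.17 (SE) in the latter; none passed. Of 21 fibril-associated genes, 17 were positive in F0_5251KD (median 0.17) and 7 in F0_5251OV (median -0.16). Among these Fmod, the fibril proteoglycan fibromodulin, had a positive value in both comparisons, 0.83 ± 0.31 and 0.89 ± 0.33 (SE). Matrix proteases and their inhibitors had medians of 0.06 and -0.16 over 18 genes, and genes of the TGF-beta pathway, a regulator of collagen genes, 0.11 and -0.18 over 16. Without F0_5NC replicate 1 the medians in F0_5251OV were -0.00065 for the other basement membrane genes (9 positive, 10 negative), -0.13 for the integrins and laminin receptors, -0.027 for collagen biosynthesis, -0.069 for the fibril-associated genes, 0.028 for the proteases and -0.048 for the TGF-beta pathway. In F0_5251KD, with a library left out, the medians of the integrins and laminin receptors (-0.005 to 0.11) and of the proteases (-0.042 to 0.13) fell on both sides of 0, and those of the other 5 lists stayed positive. No gene of these 7 lists passed the adjusted threshold in F0_5251KD or F0_5251OV. Between the controls, Thbs1, which encodes the matrix protein thrombospondin-1, passed it and was higher in F0_3NC than in F0_5NC (0.99 ± 0.17, SE; adjusted p = 0.0238).

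Markers of somatic cells of the testis also had medians on the same side of 0 as the chains. In F0_5251KD, 10 of 10 peritubular myoid markers (median 0.17), 10 of 10 endothelial markers (0.25), 8 of 10 fibroblast markers (0.23) and 7 of 10 Leydig markers (0.23) were positive, and none passed the adjusted threshold. In F0_5251OV, 9 of 10 peritubular myoid markers (median -0.42), 9 of 10 endothelial markers (-0.29), 9 of 10 fibroblast markers (-0.20) and 10 of 10 Leydig markers (-0.22) were negative. Of the 10 myoid markers 7 were lower at an unadjusted p under 0.05, where 4.8% of all genes were lower. With a library left out these 4 medians were 0.047 to 0.36 in F0_5251KD, lowest for the Leydig markers without F0_5251KD replicate 1, and -0.49 to -0.13 in F0_5251OV. The summed endothelial markers were at 43.5 to 49.7 CPM in F0_5251KD and at 38.3 to 39.9 CPM in F0_3NC. The summed myoid markers were at 456.1 to 461.7 against 405.4 to 454.1 CPM there, and at 422.8 to 456.7 in F0_5251OV against 437.8 to 472.1 CPM in F0_5NC. No marker of these lists was at 0 in all libraries. In F0_3NC against F0_5NC the medians were -0.19 for the myoid, -0.14 for the endothelial, -0.27 for the fibroblast and -0.08 for the Leydig markers. There 3 myoid markers were lower and 1 was higher at an unadjusted p under 0.05, against 5.47% and 6.41% of all genes. Of the fibroblast markers 4 were lower at that p, and 1 of these passed the adjusted threshold, as 0.331% of all genes did. Sertoli markers had medians of 0.07 in F0_5251KD (9 of 15 positive), -0.21 in F0_5251OV and -0.22 between the controls. Macrophage markers had medians of 0.11 in F0_5251KD (8 of 10 positive), -0.38 in F0_5251OV (9 of 10 negative) and -0.33 between the controls. Spermatid markers had medians of 0.02 in F0_5251KD and 0.05 in F0_5251OV, and spermatocyte markers of -0.12 and 0.07. The part of these shifts in the values of the chains was not tested.

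**Figure D4:**
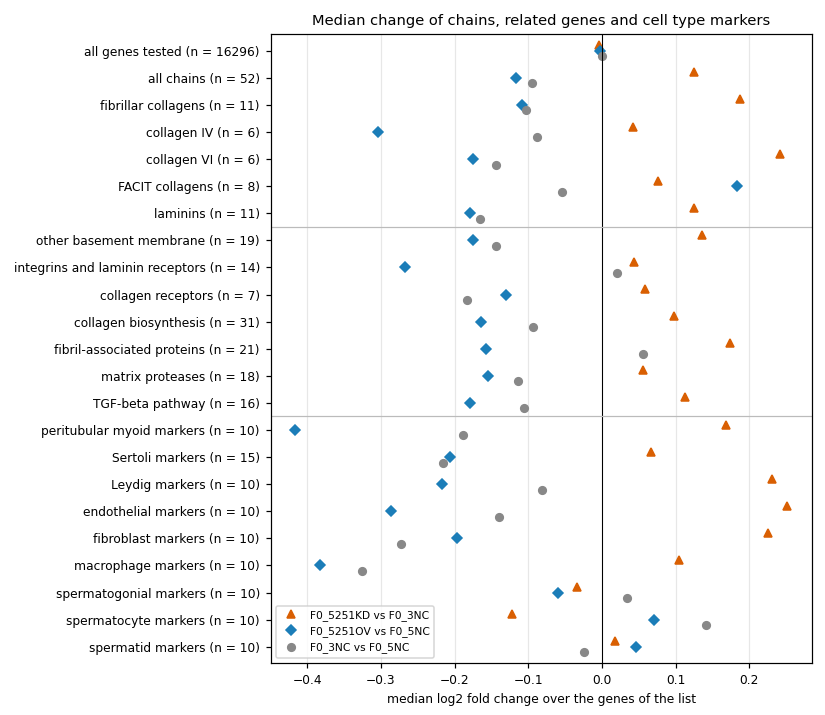
Median log2 fold change of the chains (top), of 7 lists of related genes (middle) and of 9 lists of cell type markers (bottom), with the number of genes tested. Triangles (knockdown) lie right of 0 for the chains, the related lists and the 6 somatic marker lists, and diamonds (overexpression) lie left of 0 for the same lists except the FACIT collagens (0.18).

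Within the groups, the chains deviated in blocks. For the 33 chains with a mean of at least 100 counts, the deviation of each library from its group mean was correlated over the 12 libraries, as a description only, since the libraries share depth and cell make-up. The median over 528 pairs was 0.06, with 18 pairs above 0.8 and 60 below -0.5. Lama1, Lamb2, Lamc3, Col4a1 and Col4a2, 5 of the basement membrane chains, formed 1 block. Pearson's r was 0.96 for Lama1 and Col4a1, 0.95 for Lamb2 and Col4a1, 0.82 for Lamc3 and Lamb2, and 0.81 for Col4a1 and Col4a2. These 5 chains were all at their highest in F0_5NC replicate 1. Spearman's rho was 0.93, 0.85, 0.65 and 0.51 for the same pairs. Other basement membrane chains did not all go with them. Pearson's r was 0.85 for Lama1 and Col18a1, but 0.08 for Lamc1 and Lama2 and -0.84 for Col4a1 and Lamb3. Fibrillar chains went together as Col1a1 with Col5a1 (0.88), Col1a2 with Col3a1 (0.79) and Col1a1 with Col1a2 (0.73), but not apart from other classes. Col1a2 had 0.87 with the laminin chain Lamc1, and the collagen VI chains Col6a1 and Col6a2 had 0.78 with each other. Lamb1 and Lamc1, the common beta and gamma chains, had 0.88. All of these fibrillar, collagen VI and laminin chains ran low in F0_5NC replicate 2. The pair Col4a5 and Col4a6, which are below 100 counts and not among the 33, had 0.07.

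The same deviations were set beside those of the mean log2 CPM of each list of cell type markers. Col20a1, Col27a1 and Col22a1 deviated with the spermatid markers (r of 0.91, 0.87 and 0.85), as did Col26a1 (0.73). Col4a4, Col12a1 and Col4a3 deviated with the spermatocyte markers (0.87, 0.78 and 0.77). Col18a1, Lama1, Col4a1 and Lamb2 deviated with the Sertoli markers (0.90, 0.90, 0.90 and 0.88) and as closely with the fibroblast markers (0.83, 0.89, 0.92 and 0.96). The last also followed the endothelial markers (0.88), and Col6a1, Lamc1, Col3a1 and Col1a2 with the Leydig markers (0.80, 0.80, 0.78 and 0.76). Col16a1 had no marker list above 0.53. With 12 libraries in 4 groups, these values describe these libraries and do not assign a chain to a cell type.

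**Figure D5:**
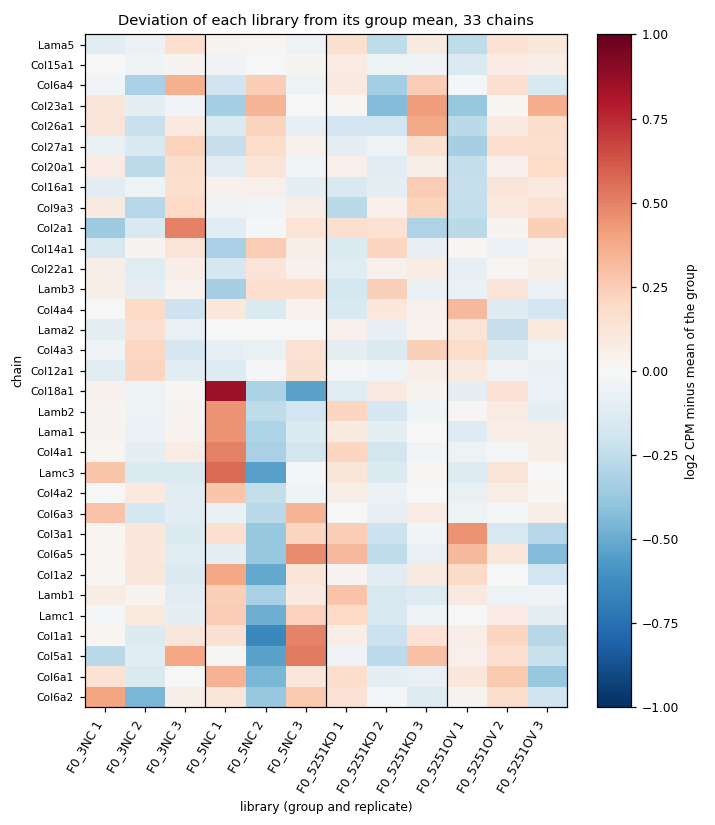
Log2 CPM of each library minus the mean of its group for the 33 chains with at least 100 counts on average; red is above and blue below the group mean, and rows are ordered by likeness. F0_5NC replicate 1 is red for Lamb2, Lama1, Col4a1, Lamc3 and Col18a1, and F0_5NC replicate 2 is blue for Col1a1, Col1a2, Col5a1 and Lamc1.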

How the data were processed

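Testis RNA was measured in 12 libraries (4 groups of 3). Per the methods of the study, messenger RNA was taken with oligo(dT), cDNA was primed with random hexamers, and reads were aligned with SOAPaligner 2.20; the labels name the build mm10. The authors deposited 1 table with an estimated count and an expression value per gene and library. The deposited expression value, which the authors scaled by transcript length and library total, is used as FPKM; the header names no unit and the methods speak of RPKM. Of the deposited estimated counts 11.96% were not whole (tolerance 1e-06), and all were rounded here. The table also held 18 per-sample columns of samples not analysed here and 14 columns of averages, none of them used.

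The main test was the two-sided quasi-likelihood test of edgeR 4.0.16 (R 4.3.3), after filterByExpr and with TMM factors of 0.970 to 1.078. A single fit held the 12 libraries and left 8 residual degrees of freedom. The p-values were adjusted by Benjamini-Hochberg over 16296 genes, threshold 0.05. The SE is the log2 fold change over the square root of F. Levels between genes are compared as FPKM, and levels of a chain between libraries as TMM-scaled CPM. Libraries of a group differed by more than sampling noise (chi-square per gene of at least 3.86). The scripts were tested on simulated data.

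The members, the gene lists and the rule for named chains were chosen with earlier results of these data known. Of the fibroblast markers, Dpt and Mfap5 are also in the fibril-associated list. The rule took the 6 highest chains, per comparison each called chain and the 3 with the smallest p in each direction, all chains of collagens I, III, IV and VI, Lama2, Lamb1, Lamb2 and Lamc1, and the chains next to the count minimum; for each related list the called genes or the 2 with the smallest p were eligible. Chains named beside these, such as Col2a1, Col11a1, Col18a1 and Col26a1, were chosen after their values were seen. Some items are not reported here, in the text or as single genes in the figures; the counts and medians of lists include them. Coordinates and promoters are from RefSeq (GRCm38.p6), transcripts from GENCODE (GRCm38). The alternatives tried were upper-quartile scaling, DESeq2 1.42.0, limma 3.58.1 on log2(FPKM + 1) and log2(FPKM + 0.1), a filter of at least 1 CPM in 3 libraries or none, the compared groups alone, a replicate block and leaving out each library; FPKM per longest transcript and the list medians with a library left out were chosen after seeing the data. Estimated counts give no interval for reads shared between genes, so errors cover the spread between libraries only.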

Additional observations from a re-analysis of the deposited data

How the results depend on the processing

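In F0_5251KD against F0_3NC no chain was called in any alternative, and the median of the chains stayed positive. In F0_5251OV against F0_5NC the count was 1 in DESeq2 (Col16a1) and 0 in all other alternatives, and for the difference of effects it was 1 in DESeq2 (Col16a1) and 0 in the others. Between the controls the count of 1 (Col12a1) became 0 with upper-quartile scaling, with no filter, in both limma fits, with only the groups compared and with the replicate block, and 0 to 0 when a library was left out; it stayed 1 in DESeq2 and with at least 1 CPM in 3 libraries. The log2 fold change of Col12a1 lay between 0.33 and 0.71 in these, and the cause of the lost call was not tested. The median of the difference of effects was 0.12 in limma on log2(FPKM + 1), and 0.16 to 0.25 with a library left out. The median between the controls was -0.17 to -0.064 with a library left out, -0.17 being that without F0_5NC replicate 2.

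Replicate numbers did not pair the libraries: correlations of same-numbered libraries were -0.24 to 0.16 over 6 pairs of groups. With the replicate block the log2 fold changes of Col1a1 and Col1a2 in F0_5251OV were 0.043 and 0.0026, on the other side of 0. Other values near 0 that turned sign in F0_5251OV against F0_5NC were Col4a6 (-0.0049 and -0.0088 in limma with the larger and smaller pseudocount) and Col1a1 (0.0098 with the smaller pseudocount). With 1 library left out, log2 fold changes near 0 ran on both sides of it in F0_5251KD against F0_3NC Col9a3 -0.056 to 0.20, Col6a6 -0.30 to 0.28, Col4a3 -0.23 to 0.015, Col4a2 -0.092 to 0.0075, Col4a5 -0.0070 to 0.26, Lama1 -0.074 to 0.018 and in F0_5251OV against F0_5NC Col1a2 -0.23 to 0.19, Col1a1 -0.26 to 0.27, Col20a1 -0.15 to 0.061, Col4a6 -0.0050 to 0.12, Col6a5 -0.0024 to 0.45, Col25a1 -0.45 to 0.040, Col4a3 -0.15 to 0.030, Col8a1 -0.059 to 0.24, Col3a1 -0.037 to 0.36. Of the other values of named chains, 994 kept direction and side of the threshold. The mean FPKM of Col22a1, Col16a1 and Col20a1 moved to 29.8, 28.2 and 9.24 with the longest coding transcript. With 3 libraries a group, the 95% interval of a log2 fold change near the middle of the levels was wide, as for Lamc1 (-0.23 to 0.51 in F0_5251KD), so differences of that size were not detectable.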
